A study of Mus musculus with 9 samples.

Results

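The 40 genes described here encode proteins of the extracellular matrix and proteins that mark or are secreted by stromal cells, measured by RNA sequencing in mouse pro-B cell cultures. They were taken by symbol from the deposited expression tables, where all 40 were found among 23279 gene rows. A gene was called detected when its wild-type mean was at least 1 raw FPKM (fragments mapped to a gene, scaled to transcript length and library size, so that levels can be set beside each other between genes). By that threshold 33 of the 40 were detected, and Col5a1, Col4a2, Loxl1, Fbn1, Lum, Mmp2 and Sfrp1 were not. Just above the threshold lay Col1a1 (1.01 raw FPKM) and Postn (1.07), and just below it Fbn1 (0.854) and Col4a2 (0.620).

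The study compared 9 libraries in 3 groups of 3. Ts1Rhr mice carry an extra copy of a chromosome segment that matches the Down syndrome critical region, on an FVB × C57BL/6 F1 background. The HMGN1_OE mice overexpress Hmgn1, a nucleosome-binding protein gene of that segment, on C57BL/6. The third group was wild-type littermates, whose strain the labels do not name, so strain and genotype cannot be told apart. All donors were 6 to 8 weeks old. Whole bone marrow, depleted of red cells by lysis, was plated in a semi-solid medium containing interleukin-7, and the colonies that had grown by day 7 were harvested as a pool. No sort is named in the labels, and neither is the promoter behind the Hmgn1 overexpression. Replicates are labelled biological, and which of them came from 1 animal is not stated. Both mutant groups were set against the same 3 wild-type libraries.

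The extracellular matrix is the network of collagens, glycoproteins and proteoglycans that cells secrete and anchor to. Collagen chains fold in the endoplasmic reticulum, assemble into triple helices, are secreted and are then crosslinked by lysyl oxidases, while metalloproteases and their tissue inhibitors control turnover. In bone marrow most of this matrix is made by mesenchymal stromal cells, osteoblasts and endothelial cells, which also supply Cxcl12 and interleukin-7 to developing B cells. Developing B cells themselves make little fibrillar collagen.

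Both deposited versions of the data were used. The submitters name 1 table raw and the other normalised. Synthetic spike-in RNA was added to the samples for scaling per cell, but how the second table was made is not stated, and its ratio to the raw table differs between genes within a library. Fold changes were tested with limma on log2 normalised FPKM, over 10878 genes with a mean of at least 1 raw FPKM in the 9 libraries, and a change was called at a Benjamini-Hochberg adjusted p under 0.05. Of the 40 genes 24 entered that test. Of these, 9 had a mean below 1 in a mutant group and so passed through the other libraries, and a gene that passes in that way had to differ. For that reason the counts over all 40 genes, and over the 15 genes with a mean of at least 1 in every group, are given beside the calls.

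Most of the genes lay far below wild type in both mutant groups. The 40 were chosen with earlier results of these data known. The shares of all rows given beside their counts are therefore a description and not a test of the list. In raw FPKM all 3 Ts1Rhr libraries lay below all 3 wild-type libraries for 29 of the 40 genes, against 15.2% of the 16092 rows with any signal. For HMGN1_OE the same held for 30 of the 40, against 8.29% of rows. In normalised FPKM the counts were 28 of 40 for Ts1Rhr (7.85% of rows) and 25 of 40 for HMGN1_OE (2.19% of rows). The median log2 difference over all 40 genes in normalised FPKM was -1.75 in Ts1Rhr, against 0.07 over all rows, and -1.50 in HMGN1_OE, against 0.16. In bulk RNA, fewer cells of a type and less RNA per cell cannot be told apart.

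**Figure D1:**
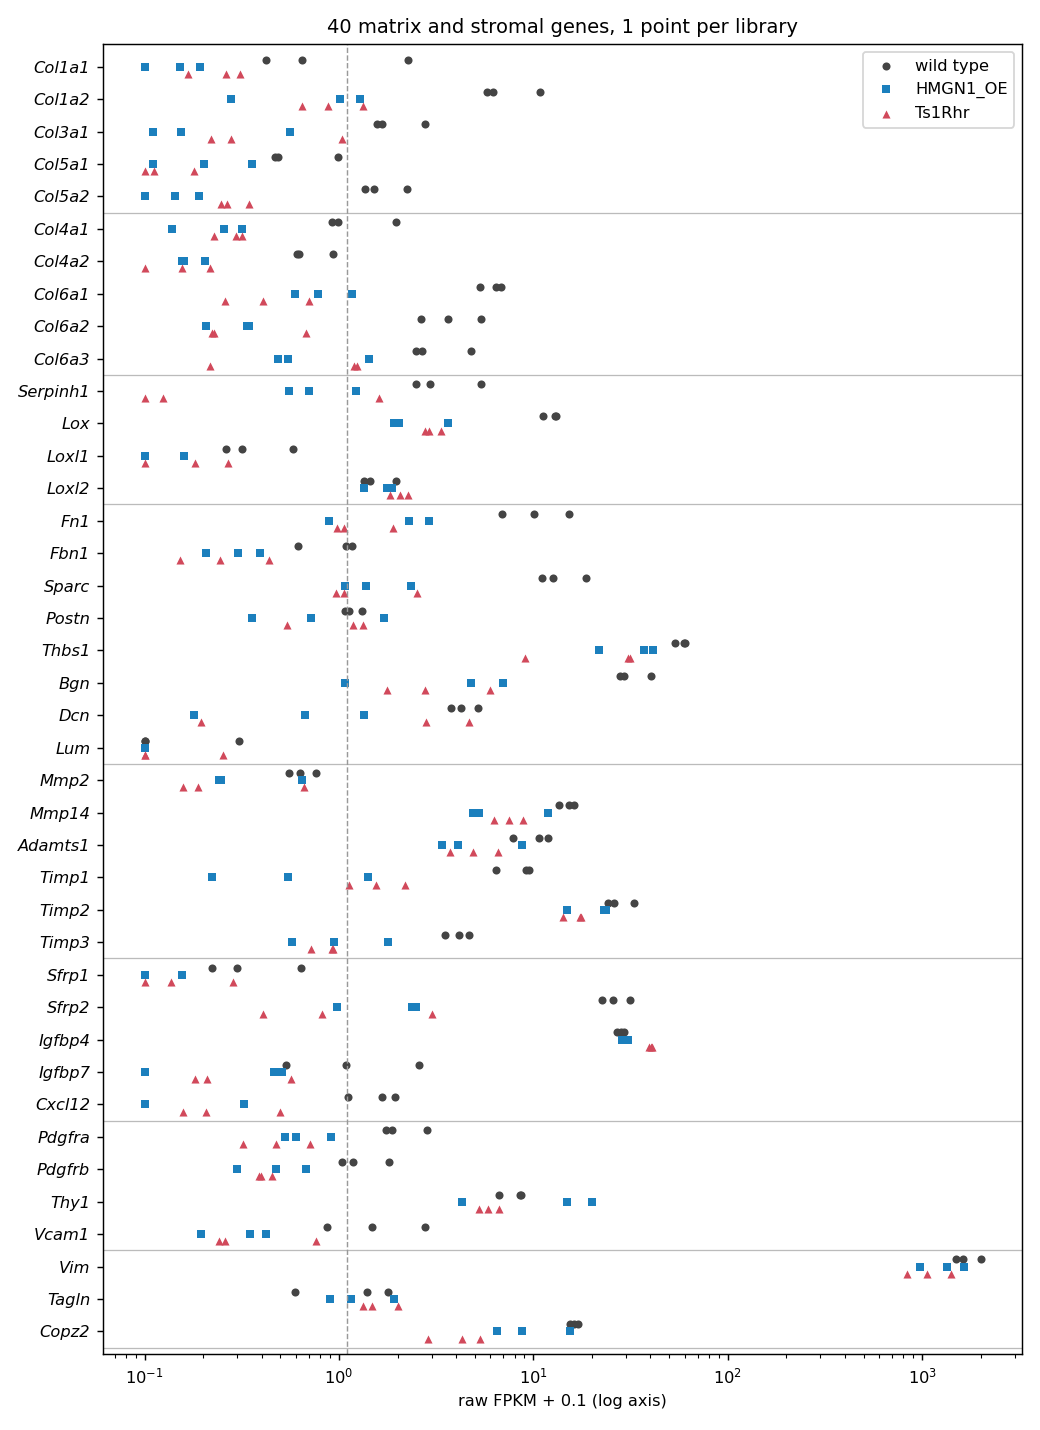
Raw FPKM plus 0.1 (log axis) of the 40 genes in each of the 9 libraries, grouped by role with grey lines between roles; the dashed line marks a raw FPKM of 1. The wild-type points lie to the right of all 6 mutant points for 26 genes, while Igfbp4, Thy1, Loxl2, Tagln and Postn do not share that pattern.

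By the test, 8 of the 24 genes fell in Ts1Rhr (limma, normalised FPKM), namely Sfrp2, Sparc, Col6a1, Bgn, Fn1, Lox, Copz2 and Col1a2, where 0.147% of all tested genes were called lower. None of the 24 rose, against 0.423% of tested genes called higher, and Igfbp4 was the one higher gene with an unadjusted limma p under 0.05. In HMGN1_OE 6 fell, namely Lox, Sparc, Sfrp2, Timp1, Bgn and Col1a2, against 0.0827% of tested genes, and none rose (0.00919% of tested genes), also at an unadjusted limma p under 0.05. Col1a2, Lox, Sparc, Bgn and Sfrp2 were called in both comparisons, which share their controls. Among the 15 genes with a mean of at least 1 in every group, 6 were called lower in Ts1Rhr and 4 in HMGN1_OE. The share called among all genes with such means was not computed. The calls outside these 15 genes were Col1a2 in both groups, Col6a1 in Ts1Rhr and Timp1 in HMGN1_OE.

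Raw FPKM gave more calls in Ts1Rhr and fewer in HMGN1_OE. With 0.1 added before taking log2, 15 of the 24 genes fell in Ts1Rhr (4.56% of tested genes) and Igfbp4 rose (4.29% of tested genes). The genes added were Col6a2, Serpinh1, Thbs1, Timp1, Timp2, Timp3 and Pdgfra. In HMGN1_OE only Lox and Sparc passed on raw FPKM, against 0.0368% of tested genes. Testing all 16092 rows with no filter on normalised FPKM left Col6a1 alone in Ts1Rhr (limma adjusted p = 0.0262), with 0.0435% of rows called lower. Sfrp2 just missed the threshold in that fit (limma adjusted p = 0.05003). No member was called in HMGN1_OE (0.0186% of rows). An unadjusted limma p under 0.05 was found for 29 of the 40 in Ts1Rhr and 26 in HMGN1_OE. Over the 16092 rows these counts were 2543 and 1807. On raw FPKM with no filter 13 of the 40 were called lower in Ts1Rhr (0.907% of rows) and 5 in HMGN1_OE (0.149% of rows). Leaving out 1 library moved the count of calls between 1 and 11 in Ts1Rhr and between 0 and 8 in HMGN1_OE. The lowest counts came without wild-type replicate 3 (1 and 0) and, for HMGN1_OE, also without wild-type replicate 2. Calls over all genes without single libraries are not given here.

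**Figure D2:**
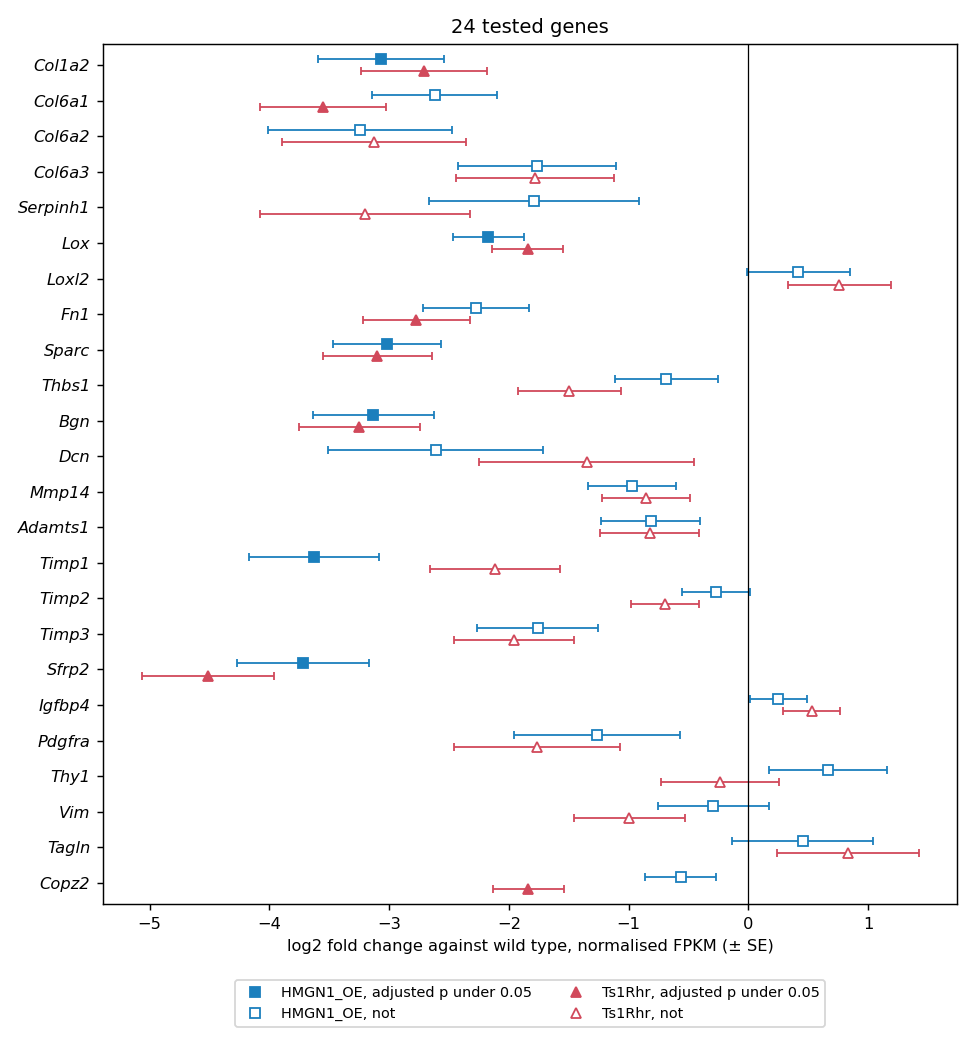
Log2 fold change against wild type in normalised FPKM with its standard error for the 24 tested genes, squares for HMGN1_OE and triangles for Ts1Rhr, filled where the limma adjusted p is under 0.05. Estimates of both groups lie below 0 for all but Loxl2, Igfbp4, Thy1 and Tagln, from -4.52 for Sfrp2 in Ts1Rhr to 0.83 for Tagln in Ts1Rhr.

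Sfrp2, a secreted frizzled-related protein that binds Wnt ligands, had the largest decrease of the tested genes here. It read 22.9, 29.7 and 21.0 normalised FPKM in wild-type replicates 1 to 3, 1.81, 1.29 and 2.69 in HMGN1_OE, and 3.60, 0.427 and 0.774 in Ts1Rhr. All 6 mutant libraries lay far below the wild-type ones. The log2 fold change was -4.52 ± 0.55 (SE) in Ts1Rhr (limma adjusted p = 0.000991) and -3.72 ± 0.55 in HMGN1_OE (limma adjusted p = 0.0074). In Ts1Rhr it passed without any one of the 9 libraries. Its relative Sfrp1 averaged 0.286 raw FPKM in wild type and was listed at 0 in HMGN1_OE replicates 1 and 2 and in Ts1Rhr replicate 3.

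The promoter sequences of 5 genes are shown so that genes that fell can be set beside Igfbp4, which did not. They are the 250 bases before the annotated start site in RefSeq (GRCm38.p6, a later build than the mm9 named for the expression tables), written 5′ to 3′ along the gene's strand. Promoters were matched for 25 of the 40 genes. Capitals mark matches, on either strand, to the TATA box letters TATAAA, the CCAAT box, the AP-1 site TGANTCA, the TEAD site GGAATG or the GC box GGGCGG.
Sfrp2, chr3:83766071-83766320, plus strand: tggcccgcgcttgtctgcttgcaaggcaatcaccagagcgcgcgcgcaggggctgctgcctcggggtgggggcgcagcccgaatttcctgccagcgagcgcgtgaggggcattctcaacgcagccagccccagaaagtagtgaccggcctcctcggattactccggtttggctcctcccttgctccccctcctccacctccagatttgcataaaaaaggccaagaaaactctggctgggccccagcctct
Sparc, chr11:55420081-55420330, minus strand: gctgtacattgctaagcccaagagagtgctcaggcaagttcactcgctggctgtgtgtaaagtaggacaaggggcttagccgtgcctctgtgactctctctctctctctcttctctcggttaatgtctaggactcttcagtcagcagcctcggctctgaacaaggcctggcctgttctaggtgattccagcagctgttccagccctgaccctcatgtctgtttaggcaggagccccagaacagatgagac
Bgn, chrX:73483351-73483600, plus strand: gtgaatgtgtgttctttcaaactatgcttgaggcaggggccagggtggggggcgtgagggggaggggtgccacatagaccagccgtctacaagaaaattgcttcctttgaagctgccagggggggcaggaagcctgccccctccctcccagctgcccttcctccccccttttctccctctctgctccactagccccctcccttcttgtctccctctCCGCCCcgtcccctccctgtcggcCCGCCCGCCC
Copz2, chr11:96849626-96849875, plus strand: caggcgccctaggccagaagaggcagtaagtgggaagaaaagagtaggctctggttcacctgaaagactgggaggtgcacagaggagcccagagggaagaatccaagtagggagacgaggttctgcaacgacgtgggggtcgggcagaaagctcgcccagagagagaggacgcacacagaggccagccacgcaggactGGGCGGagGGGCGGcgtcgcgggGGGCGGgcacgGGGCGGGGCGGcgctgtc
Igfbp4, chr11:99040994-99041243, plus strand: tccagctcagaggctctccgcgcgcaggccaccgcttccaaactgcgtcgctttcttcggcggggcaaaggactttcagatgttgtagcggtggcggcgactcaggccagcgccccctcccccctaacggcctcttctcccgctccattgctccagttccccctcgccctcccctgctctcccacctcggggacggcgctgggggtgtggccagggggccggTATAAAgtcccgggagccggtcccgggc

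The windows of Sfrp2 and Sparc held none of the 5 motifs, that of Bgn held 3 GC boxes (overlapping matches counted), that of Copz2 held 5, and that of Igfbp4 held a TATA box starting at position -28 from the start site. Over the 25 matched genes a GC box was found in 60% of windows, against 60.5% of the tested genes with a promoter and 32.9% of all 27025 RefSeq promoters. The TATA box was found in 4 of 25 (16%), against 5.8% of tested genes and 13% of all. The CCAAT box was found in 7 (28%, against 37% and 34.5%), the TEAD letters in 3 (12%, against 9.74% and 12.6%) and the AP-1 letters in 1, that of Col6a1 (4%, against 4.08% and 6.87%). A match is only a match of letters, and no match says only that these letters are not in the window.

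The fibrillar collagens form the tensile fibres of connective tissue. Col1a2, a chain of type I collagen, read 5.16, 9.61 and 5.18 normalised FPKM in wild type, 0.729, 0.417 and 1.44 in HMGN1_OE, and 1.52, 0.690 and 0.880 in Ts1Rhr. All 6 mutant libraries were lower than every wild-type library. It fell by 2.71 ± 0.53 (SE) on the log2 scale in Ts1Rhr (limma adjusted p = 0.0327) and by 3.07 ± 0.53 in HMGN1_OE (limma adjusted p = 0.0256). Its means were 0.853 raw FPKM in Ts1Rhr and 0.758 in HMGN1_OE, so it entered the test through wild type. With no filter its limma adjusted p was 0.0908 in Ts1Rhr and 0.0951 in HMGN1_OE. The partner chain Col1a1 sat just above the detection threshold, with 0.319, 2.16 and 0.543 raw FPKM in wild type and 0 to 0.209 in the mutant libraries. The Col1a2 to Col1a1 ratio of raw FPKM was 17.9, 4.99 and 11.2 in the 3 wild-type libraries, although the protein holds more of the Col1a1 chain. Col3a1 averaged 1.90 ± 0.660 raw FPKM (SD, n = 3) in wild type, Col5a2 1.61 ± 0.478 and Col5a1 0.548 ± 0.298. In both mutant groups all 5 fibrillar chains lay below every wild-type library in raw FPKM. Col3a1 was listed at 0.01 raw FPKM in HMGN1_OE replicate 1, a value that can be a failed estimate.

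Type IV collagen builds basement membranes, and type VI collagen forms beaded filaments. Col6a1 read 4.62, 5.89 and 5.49 normalised FPKM in wild type, 0.836, 0.847 and 0.906 in HMGN1_OE, and 0.738, 0.279 and 0.449 in Ts1Rhr. In normalised FPKM every Ts1Rhr library was lower than every HMGN1_OE library, and both were well below wild type. In raw FPKM the mutant groups overlapped, with 0.604 in Ts1Rhr replicate 1 and 0.497 in HMGN1_OE replicate 2. Col6a1 fell in Ts1Rhr by 3.55 ± 0.52 (SE) on the log2 scale (limma adjusted p = 0.00718). In HMGN1_OE the log2 fold change was -2.62 ± 0.52, which missed the threshold (limma adjusted p = 0.0657). Col6a1 entered the test through wild type, with means of 0.356 raw FPKM in Ts1Rhr and 0.748 in HMGN1_OE. With no filter its limma adjusted p was 0.0262 in Ts1Rhr and 0.0951 in HMGN1_OE. Its partners Col6a2 and Col6a3 averaged 3.23 ± 1.20 and 2.77 ± 1.08 normalised FPKM (SD, n = 3) in wild type, 0.327 ± 0.0551 and 0.792 ± 0.202 in HMGN1_OE, and 0.392 ± 0.233 and 0.963 ± 0.609 in Ts1Rhr, and neither passed. Col4a1 and Col4a2, which are transcribed head to head from neighbouring start sites, averaged 1.19 ± 0.582 and 0.620 ± 0.184 raw FPKM in wild type. They overlap in exons on opposite strands by the annotation, and strand use in counting is not stated, so their reads may be shared.

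Summed over the 10 collagen chains, raw FPKM were 20.8, 38.0 and 23.6 in wild type, 4.04, 1.52 and 3.53 in HMGN1_OE, and 5.22, 2.61 and 2.02 in Ts1Rhr. Every wild-type library lay far above every mutant library. Wild-type replicate 2 was the highest library for each of the 10 chains.

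Collagen needs the chaperone Serpinh1 to fold and lysyl oxidases to crosslink. Lox, the main lysyl oxidase, read 12.9, 12.2 and 9.20 normalised FPKM in wild type, 2.95, 2.59 and 2.07 in HMGN1_OE, and 4.20, 2.83 and 2.65 in Ts1Rhr. Neither mutant group overlapped with wild type. It fell by 1.84 ± 0.30 (SE) on the log2 scale in Ts1Rhr (limma adjusted p = 0.00884) and by 2.17 ± 0.30 in HMGN1_OE (limma adjusted p = 0.00646). Serpinh1 read 2.84, 5.26 and 2.38 raw FPKM in wild type, 0.453 to 1.12 in HMGN1_OE, and 1.51, 0.0247 and 0 in Ts1Rhr. On normalised FPKM it did not pass in Ts1Rhr (log2 fold change -3.20 ± 0.88 SE, limma adjusted p = 0.0909), and on raw FPKM it did (-3.64, limma adjusted p = 0.0414). Loxl2, another lysyl oxidase, had higher means in the mutant groups, with 1.34 ± 0.389 normalised FPKM (SD, n = 3) in wild type, 1.76 ± 0.272 in HMGN1_OE and 2.23 ± 0.343 in Ts1Rhr, and did not pass (limma adjusted p = 0.333 in Ts1Rhr). Loxl1 stayed at or below 0.480 raw FPKM in every library.

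Among matrix glycoproteins, Sparc, a collagen-binding protein, read 10.9, 17.5 and 10.4 normalised FPKM in wild type, 1.04, 1.42 and 2.56 in HMGN1_OE, and 3.08, 1.02 and 1.01 in Ts1Rhr. It fell by 3.10 ± 0.45 (SE) on the log2 scale in Ts1Rhr (limma adjusted p = 0.00718) and by 3.02 ± 0.45 in HMGN1_OE (limma adjusted p = 0.0074). The estimates of the 2 mutant groups were close to each other. Fn1, the fibronectin gene, whose product links cells to the matrix, read 6.52, 14.0 and 8.35 in wild type, 1.79, 1.18 and 3.17 in HMGN1_OE, and 2.29, 1.03 and 1.01 in Ts1Rhr. It fell in Ts1Rhr by 2.77 ± 0.44 (limma adjusted p = 0.00884), and the estimate in HMGN1_OE was -2.28 ± 0.44 (limma adjusted p = 0.0657). Thbs1, encoding thrombospondin, was second only to Vim among the 40 genes in wild type, with 60.2, 53.3 and 59.8 raw FPKM in wild type, 36.8, 41.1 and 21.7 in HMGN1_OE, and 31.2, 30.5 and 8.98 in Ts1Rhr. Its log2 fold change in Ts1Rhr was -1.50 ± 0.43 in normalised FPKM (limma adjusted p = 0.1) and -1.49 in raw FPKM (limma adjusted p = 0.0477). Postn, encoding periostin, overlapped between all groups, at 1.07 ± 0.127 raw FPKM (SD, n = 3) in wild type, 0.823 ± 0.693 in HMGN1_OE and 0.913 ± 0.418 in Ts1Rhr. Fbn1, encoding fibrillin, averaged 0.854 ± 0.297 raw FPKM in wild type, the closest of the undetected genes to the threshold.

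The small leucine-rich proteoglycans Bgn, Dcn and Lum bind collagen fibrils. Bgn, encoding biglycan, read 31.6, 39.2 and 22.7 normalised FPKM in wild type, 5.95, 1.38 and 5.10 in HMGN1_OE, and 7.23, 1.81 and 2.50 in Ts1Rhr. The highest mutant library was less than the lowest wild-type one by a wide margin. It fell by 3.25 ± 0.51 (SE) on the log2 scale in Ts1Rhr (limma adjusted p = 0.00884) and by 3.13 ± 0.51 in HMGN1_OE (limma adjusted p = 0.0156). Dcn, encoding decorin, overlapped with wild type in Ts1Rhr. Its raw FPKM were 4.14, 5.09 and 3.68 in wild type, 0.571, 0.0787 and 1.25 in HMGN1_OE, and 4.59, 0.0945 and 2.69 in Ts1Rhr. Ts1Rhr replicate 1 lay within the wild-type range and replicate 2 was almost without Dcn, and the ratio of Bgn to Dcn in raw FPKM ran from 0.996 to 17.7 across the 3 Ts1Rhr libraries, against 7.06 to 7.86 in wild type. Lum, encoding lumican, was above 0 in only wild-type replicate 2 (0.206 raw FPKM) and Ts1Rhr replicate 1 (0.152).

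**Figure D3:**
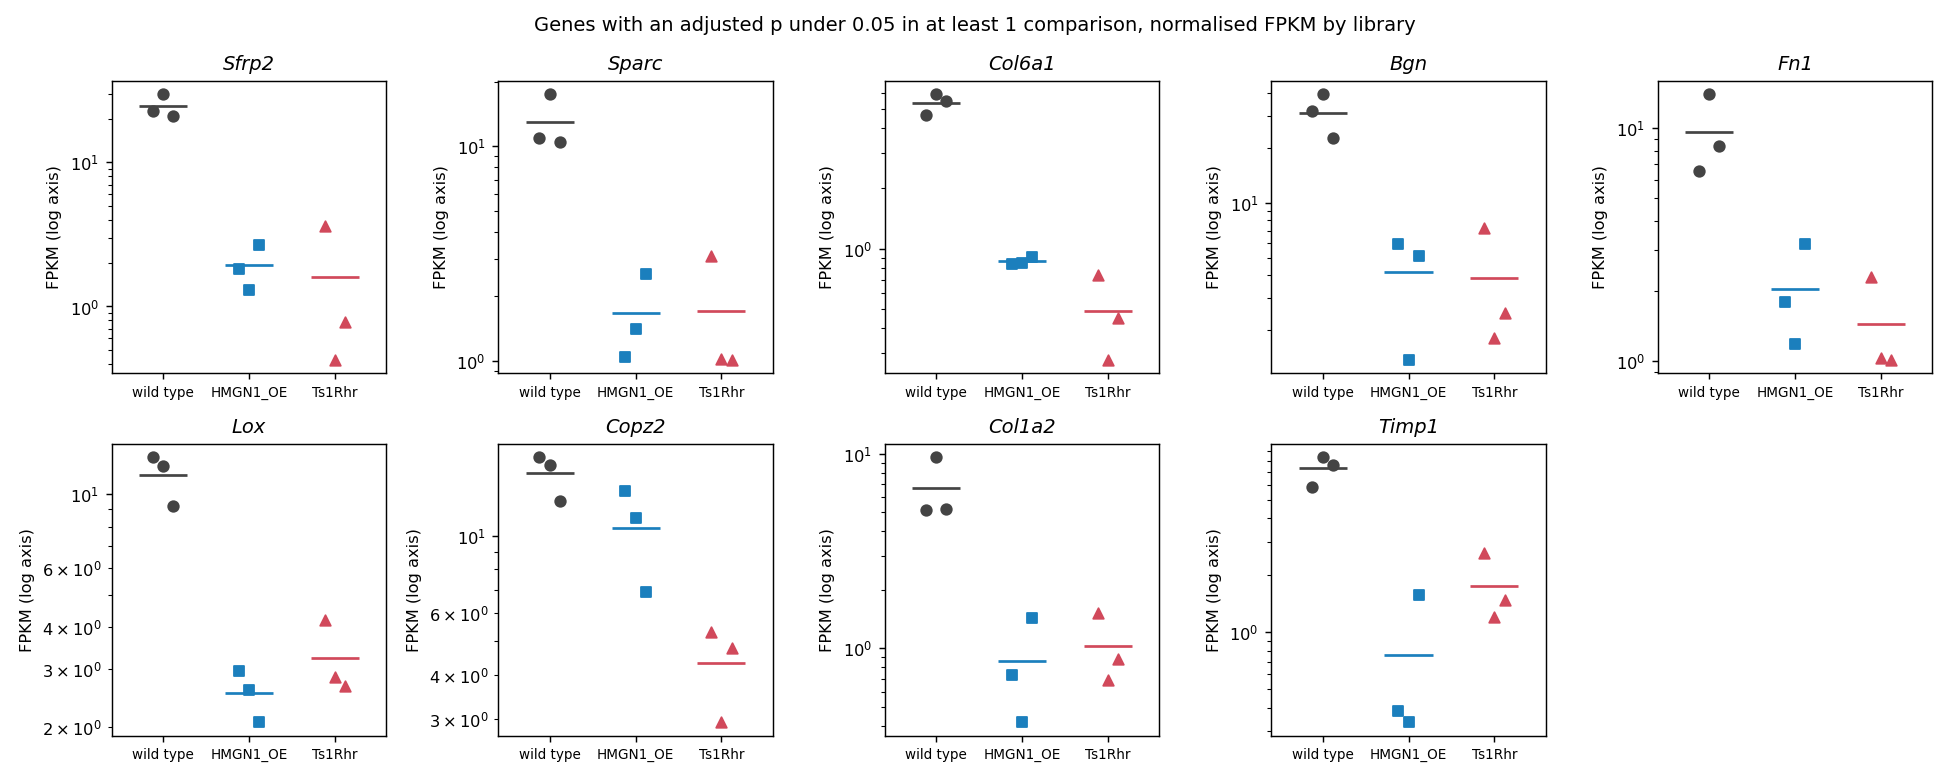
Normalised FPKM (log axis) in each library for the 9 genes with a limma adjusted p under 0.05 in at least 1 mutant group, with the group mean as a bar. In Ts1Rhr replicate 1 is the highest library in each of the 9 panels, and wild-type points lie above all mutant points except in the panel of Copz2.

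Metalloproteases cut the matrix and the Timp proteins inhibit them. Timp1 read 5.88, 8.41 and 7.67 normalised FPKM in wild type, 0.386, 0.335 and 1.56 in HMGN1_OE, and 2.62, 1.20 and 1.48 in Ts1Rhr. It fell in HMGN1_OE by 3.62 ± 0.54 (SE) on the log2 scale (limma adjusted p = 0.0074). In Ts1Rhr the estimate was -2.12 ± 0.54 (limma adjusted p = 0.0765). The HMGN1_OE mean of Timp1 was 0.623 raw FPKM, so it entered the test through the other libraries. With no filter its limma adjusted p in HMGN1_OE was 0.0951. Timp3, the matrix-bound inhibitor, averaged 4.01 ± 0.580 raw FPKM (SD, n = 3) in wild type, 1.00 ± 0.621 in HMGN1_OE and 0.754 ± 0.121 in Ts1Rhr, and on raw FPKM it fell in Ts1Rhr (log2 fold change -2.27, limma adjusted p = 0.0309). Timp2 differed less, with 33.0, 24.1 and 26.0 raw FPKM in wild type, 23.1, 23.7 and 14.8 in HMGN1_OE, and 17.2, 14.2 and 17.5 in Ts1Rhr, and on raw FPKM it fell in Ts1Rhr (log2 fold change -0.76, limma adjusted p = 0.0458). Mmp14, a membrane-bound collagenase, averaged 14.9 ± 1.30 raw FPKM in wild type, 7.24 ± 3.93 in HMGN1_OE and 7.43 ± 1.27 in Ts1Rhr. Adamts1, a protease that cuts proteoglycans, averaged 10.02 ± 2.08 in wild type, 5.32 ± 2.92 in HMGN1_OE and 4.97 ± 1.41 in Ts1Rhr. Neither Mmp14 nor Adamts1 passed in either group or table, and both were highest among HMGN1_OE libraries in replicate 2. Mmp2, encoding gelatinase A, stayed between 0.0574 and 0.660 raw FPKM, with overlap between all groups.

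Of the remaining secreted factors, Igfbp4, which binds insulin-like growth factors, was the one gene called higher, and only on raw FPKM in Ts1Rhr. It read 29.1, 26.8 and 28.3 raw FPKM in wild type, 29.4, 28.5 and 30.6 in HMGN1_OE, and 40.6, 40.3 and 39.5 in Ts1Rhr. The 3 Ts1Rhr libraries were above all others with little spread (log2 fold change 0.51 ± 0.12 SE against wild type, limma adjusted p = 0.033). In raw FPKM 14.1% of rows had all 3 Ts1Rhr libraries above all 3 wild-type libraries. In normalised FPKM the estimate was 0.53 ± 0.24 (limma adjusted p = 0.231). There Loxl2, Igfbp4 and Tagln were the 3 of 40 genes with all Ts1Rhr libraries above all wild-type ones, against 18.7% of rows. Cxcl12, the chemokine that retains B-cell precursors in marrow, read 1.84, 1.56 and 1.02 raw FPKM in wild type and 0 to 0.398 in the mutant libraries. Igfbp7 averaged 1.31 ± 1.06 raw FPKM (SD, n = 3) in wild type, 0.258 ± 0.224 in HMGN1_OE and 0.219 ± 0.215 in Ts1Rhr. Its exons overlap those of Polr2b on the other strand, a gene at 34.7 raw FPKM in wild type, so its low values may hold reads of that gene.

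The platelet-derived growth factor receptors Pdgfra and Pdgfrb mark mesenchymal cells. Pdgfra read 1.64, 2.75 and 1.77 raw FPKM in wild type, 0.428 to 0.815 in HMGN1_OE and 0.221 to 0.609 in Ts1Rhr, with no mutant library in the wild-type range. On raw FPKM it fell in Ts1Rhr (log2 fold change -2.14, limma adjusted p = 0.0394), and on normalised FPKM it did not pass (limma adjusted p = 0.189). Pdgfrb averaged 1.24 ± 0.404 raw FPKM (SD, n = 3) in wild type, 0.385 ± 0.190 in HMGN1_OE and 0.311 ± 0.0348 in Ts1Rhr. Vcam1, an adhesion molecule of stromal and endothelial cells, averaged 1.60 ± 0.970, 0.221 ± 0.116 and 0.321 ± 0.296 in the same order. Thy1, a surface glycoprotein of stromal cells and T cells, differed between HMGN1_OE libraries more than between groups, with 6.53 to 8.54 raw FPKM in wild type, 4.18, 19.9 and 14.8 in HMGN1_OE, and 5.14 to 6.58 in Ts1Rhr.

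Vim, encoding the intermediate filament vimentin, which many cell types make, was by far the most abundant of the 40 genes. It read 2001, 1492 and 1623 raw FPKM in wild type, 1649, 1343 and 975.3 in HMGN1_OE, and 1059, 837 and 1412 in Ts1Rhr, and did not pass in either group (limma adjusted p = 0.249 in Ts1Rhr and 0.813 in HMGN1_OE, normalised FPKM). Tagln, a smooth muscle actin-binding protein, averaged 1.16 ± 0.613 raw FPKM (SD, n = 3), 1.22 ± 0.527 and 1.51 ± 0.360 in wild type, HMGN1_OE and Ts1Rhr, and its exons overlap Pcsk7 on the other strand. Copz2, a coat protein subunit of vesicles between Golgi and endoplasmic reticulum, had its lowest levels in Ts1Rhr. It read 16.8, 16.0 and 12.6 normalised FPKM in wild type, 13.4, 11.2 and 6.90 in HMGN1_OE, and 5.29, 2.92 and 4.77 in Ts1Rhr. HMGN1_OE replicate 1 lay within the wild-type range, while all Ts1Rhr libraries lay below both other groups. It fell in Ts1Rhr by 1.84 ± 0.30 (SE) on the log2 scale (limma adjusted p = 0.00884), and the estimate in HMGN1_OE was -0.57 ± 0.30 (limma adjusted p = 0.466).

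**Figure D4:**
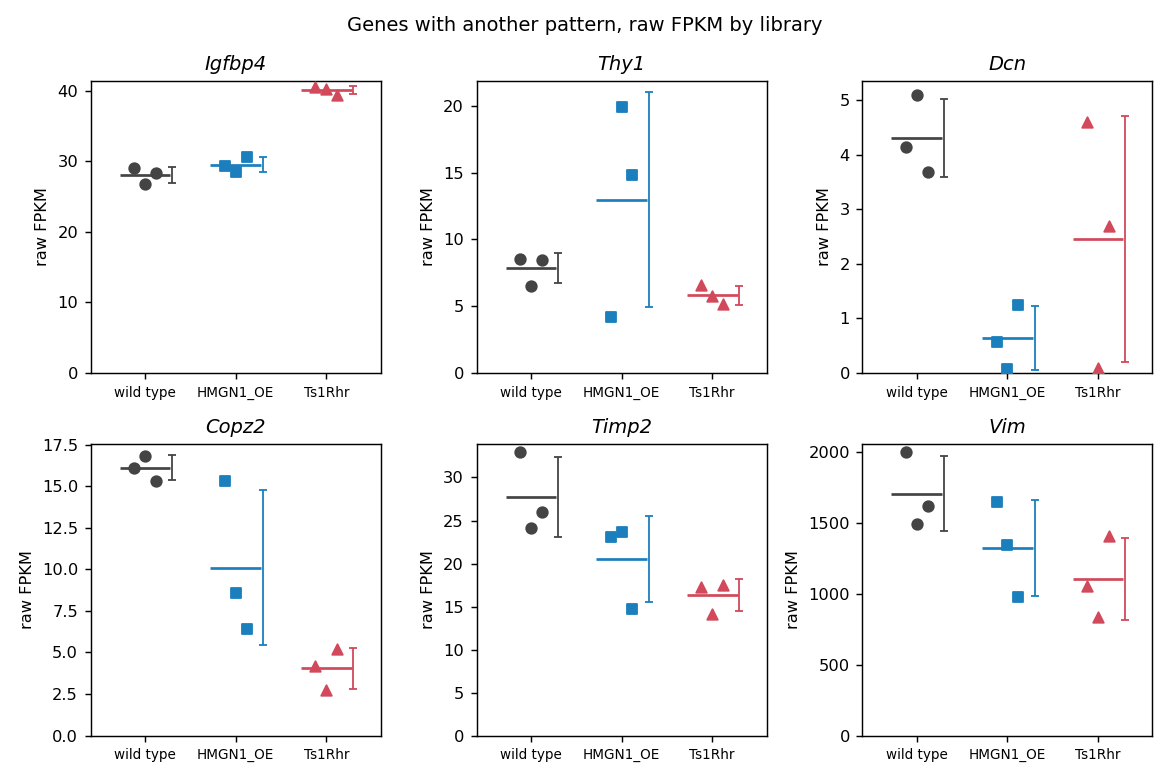
Raw FPKM in each library for 6 genes with another pattern, with the group mean and, at its side, the SD (n = 3). Igfbp4 is between 39.5 and 40.6 in Ts1Rhr and at most 30.6 elsewhere, Thy1 and Copz2 spread widely in HMGN1_OE, Dcn spreads widely in Ts1Rhr, and Timp2 and Vim differ by less than 2-fold between group means.

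Set directly against each other, the 2 mutant groups gave no call among the 24 genes, nor among all tested genes (0%). At an unadjusted p under 0.05, 475 of the 10878 genes and 2 of the 24 differed in the limma fit. These were Copz2, lower in Ts1Rhr by a log2 difference of -1.27 ± 0.30 (SE; limma adjusted p = 0.675), and Timp1, higher in Ts1Rhr by 1.51 ± 0.54 (limma adjusted p = 0.989). For Col6a1 the difference was -0.93 ± 0.52 and for Fn1 -0.50 ± 0.44 (limma adjusted p = 0.989 for both). So the genes called in 1 group and not in the other were not shown to differ between the groups. The raw table also gave 0 calls among the 24.

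Libraries differed within groups. Wild-type replicate 2 was the highest wild-type library for 28 of the 40 genes in raw FPKM, replicate 1 for 10 and replicate 3 for 2. Replicate 1 led for Thbs1, Mmp14, Adamts1, Timp2, Igfbp4, Thy1, Vim, Tagln, Postn and Cxcl12. Of the 26 genes below wild type in all 6 mutant libraries, 22 were highest in replicate 2. The 39 genes without Vim summed to 307, 347 and 303 raw FPKM in wild type, 145, 157 and 125 in HMGN1_OE, and 152, 121 and 110 in Ts1Rhr.

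Over all genes, 10824 to 10893 were at 1 raw FPKM or more in wild type, 10720 to 10780 in HMGN1_OE and 10735 to 10779 in Ts1Rhr. The numbers were similar, but every wild-type library was above every mutant library. Summed raw FPKM ran from 449560 in HMGN1_OE replicate 3 to 593252 in wild-type replicate 1. Hmgn1, read beside the labels, was at 58.5 to 67.3 raw FPKM in wild type, 71.9 to 77.2 in HMGN1_OE and 125 to 127 in Ts1Rhr. In normalised FPKM it was at 46.9 to 74.8, 75.9 to 101 and 115 to 127 in the same order. On this mouse gene row wild type and HMGN1_OE thus lay close to each other. Whether the row counts reads of the overexpressed copy was not tested. Ts1Rhr replicate 3 was male by Xist (0.443 raw FPKM) and Ddx3y (41.8) and the others female, and wild-type replicate 1 had the highest level of the ribosomal RNA precursor Rn45s (10510). Without both of these libraries 5 genes were called in Ts1Rhr and 7 in HMGN1_OE on normalised FPKM, and 0 and 0 on raw FPKM. The share of all tested genes called without them is not given here. The markers of pro-B cells, the labelled cell type, were all present, 16 of 16 detected in wild type. Their summed raw FPKM ran from 2536 to 3300 in wild type, 3396 to 4727 in HMGN1_OE and 3371 to 4188 in Ts1Rhr. On raw FPKM 14 of the 16 had estimates above wild type in Ts1Rhr and 15 in HMGN1_OE. There 6 were called higher in Ts1Rhr, against 4.29% of tested genes, and 0 in HMGN1_OE. On normalised FPKM 0 were called in either group.

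Myeloid cells were also present. All 16 tested macrophage markers had estimates below wild type in Ts1Rhr and 15 in HMGN1_OE, against 40.1% and 27.3% of all tested genes. On normalised FPKM 0 were called, and on raw FPKM 8 were called lower in Ts1Rhr, where 4.56% of all tested genes were. Their summed raw FPKM ran from 25260 to 37970 in wild type, 14670 to 30540 in HMGN1_OE and 16120 to 18420 in Ts1Rhr. The 8 tested neutrophil markers were lower in both groups, with 0 called. A myeloid score, the mean log2 normalised FPKM of these 24 genes, was 6.29, 5.50 and 5.38 in wild type, 4.94, 6.14 and 4.58 in HMGN1_OE, and 5.15, 4.94 and 4.36 in Ts1Rhr. HMGN1_OE replicate 2 had the second highest score of the 9 libraries and the lowest collagen sum in raw FPKM, 1.52. In normalised FPKM, from which the score was taken, its collagen sum was 3.72. There the lowest sum was 3.44, in Ts1Rhr replicate 3, which had the lowest score. With the score as a covariate 0 of the 24 genes were called in Ts1Rhr and 2 in HMGN1_OE, Lox and Timp1 (limma adjusted p = 0.0268 for both). The share of all tested genes called with the covariate is not given here, so these counts do not tell how all genes moved. In that fit the Sfrp2 estimates hardly moved, at -4.61 ± 0.75 (SE) in Ts1Rhr and -3.77 ± 0.65 in HMGN1_OE, while their limma adjusted p rose to 0.0828 and 0.0751. For Thbs1 in Ts1Rhr the estimate went from -1.50 to -0.57 ± 0.37. Of the other genes called in Ts1Rhr without the covariate, Col1a2 (-3.27), Fn1 (-3.21) and Bgn (-3.77) had larger decreases with it. Those of Sparc (-3.105) and Col6a1 (-3.58) hardly moved, and those of Lox (-1.60) and Copz2 (-1.63) were smaller.

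**Figure D5:**
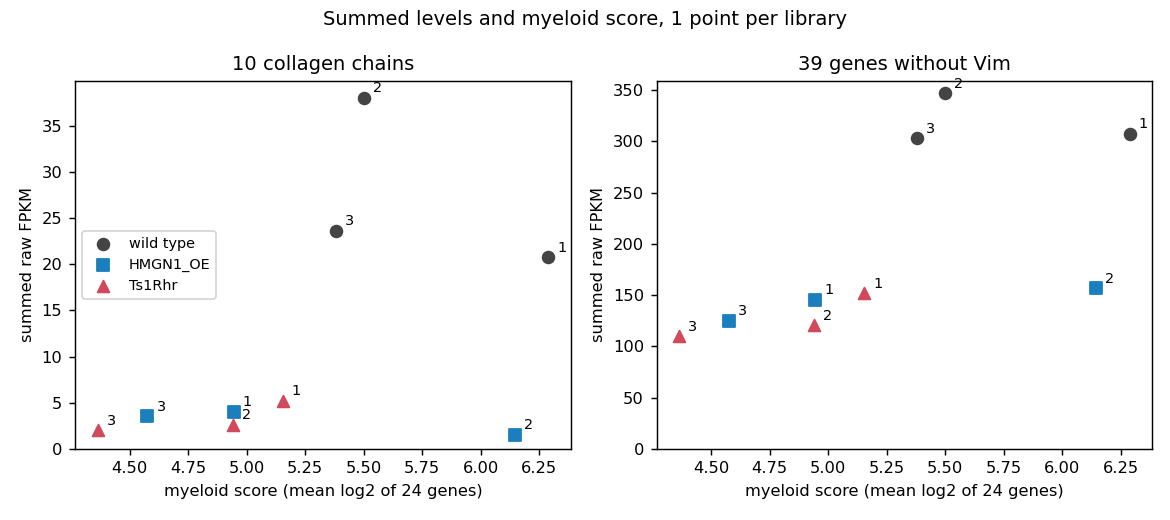
Summed raw FPKM of the 10 collagen chains (left) and of the 39 genes without Vim (right) against the myeloid score of each library, numbered by replicate. Wild-type libraries lie above all mutant libraries in both panels, and HMGN1_OE replicate 2 combines a score of 6.14 with a raw collagen sum of 1.52. The score is from normalised FPKM, in which that sum was 3.72 and the lowest was 3.44 (Ts1Rhr replicate 3).

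Other lists of matrix and stromal genes were read alongside. Of 45 other matrix proteins 12 were tested, 9 with estimates below and 3 above wild type in each mutant group. The median log2 fold change of the 12 in normalised FPKM was -0.89 in Ts1Rhr and -0.62 in HMGN1_OE. The lowest estimates were those of Tnc, at -2.78 ± 0.79 (SE) and -2.71 ± 0.79. None of the 12 was called on normalised FPKM, and 6 were called lower in Ts1Rhr on raw FPKM. For this list and those below, 4.56% of all tested genes were called lower in Ts1Rhr on raw FPKM and 4.29% higher. On normalised FPKM the shares in Ts1Rhr were 0.147% and 0.423%, and in HMGN1_OE 0.0827% and 0.00919%. The most abundant were Spp1, encoding osteopontin (3739 ± 562 raw FPKM in wild type, SD, n = 3, 2379 ± 725 in HMGN1_OE and 1907 ± 437 in Ts1Rhr), and the granule proteoglycan gene Srgn (235.0 ± 25.1, 257 ± 87.4 and 271 ± 63.3). Of 20 collagen assembly and modification genes 10 were tested, with 0 called on normalised FPKM, and 3 called lower and 1 higher in Ts1Rhr on raw FPKM. With no filter, Fkbp10 of that list was called lower in Ts1Rhr on normalised FPKM (log2 fold change -3.31 ± 0.38 SE, limma adjusted p = 0.0191). P4hb, a subunit of prolyl hydroxylase, led at 312 ± 35.2 raw FPKM in wild type, 255 ± 23.6 in HMGN1_OE and 233 ± 1.78 in Ts1Rhr. Next was Ppib, a prolyl isomerase of the endoplasmic reticulum, at 189 ± 26.7, 162 ± 9.86 and 146 ± 25.7. Of 26 other proteases and inhibitors 16 were tested and 0 called on normalised FPKM, the lysosomal protease genes Ctsb and Ctsl being highest at 1750 ± 324 and 612 ± 147 raw FPKM in wild type. On raw FPKM 6 of them were called lower and 1 higher in Ts1Rhr. Of 21 integrins and matrix receptors 12 were tested, 0 called on normalised FPKM and 1 called lower in Ts1Rhr on raw FPKM, with Sdc4 at 115 ± 12.7 raw FPKM in wild type, 151 ± 29.9 in HMGN1_OE and 177 ± 32 in Ts1Rhr.

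Signalling genes were read in the same way. Among 15 tested TGF-beta signalling genes Tgfb3, encoding a TGF-beta ligand, rose in Ts1Rhr, from 4.66, 5.89 and 4.11 normalised FPKM in wild type to 13.4, 11.6 and 12.1 (log2 fold change 1.35 ± 0.27 SE, limma adjusted p = 0.0351). In HMGN1_OE it read 6.03, 9.36 and 11.9 and did not pass (limma adjusted p = 0.288). No other of these genes was called on normalised FPKM, and on raw FPKM 3 were called lower and 1 higher in Ts1Rhr. Of 8 tested Wnt receptors and targets none was called on normalised FPKM, and on raw FPKM 1 was called lower and 2 higher in Ts1Rhr. The most abundant were Ctnnb1, encoding beta-catenin, at 1226 ± 211 raw FPKM (SD, n = 3) in wild type, 828 ± 236 in HMGN1_OE and 762 ± 180 in Ts1Rhr, and the transcription factor gene Lef1, at 86.8 ± 17.4, 157 ± 30.2 and 185 ± 33.3.

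Markers of the cell types that make matrix were sparse. Of 28 stromal and mesenchymal progenitor markers 11 were detected in wild type and 9 tested, with 0 called on normalised FPKM. S100a4 and Gsn, which myeloid cells also express, led at 319 ± 86.1 and 157 ± 17.6 raw FPKM (SD, n = 3) in wild type. A mesenchymal transcription factor gene and a cadherin gene had the pattern of the collagens, namely Prrx1 (1.40, 1.67 and 0.966 raw FPKM in wild type, at most 0.283 in the mutant libraries) and Cdh11 (1.82, 2.08 and 1.41, at most 0.404). Not all markers of the list were lower in Ts1Rhr. On raw FPKM 2 were called higher there, Foxc1 (9.76 ± 0.591 raw FPKM in wild type, 13.3 ± 2.25 in HMGN1_OE and 17.7 ± 4.21 in Ts1Rhr; limma adjusted p = 0.0372) and Bst1 (31.7 ± 3.58, 44.1 ± 5.94 and 47.5 ± 1.55; limma adjusted p = 0.0374). The untested Dpt read 0.264, 0.465 and 0.0794 raw FPKM in wild type and 1.51, 0.630 and 2.48 in Ts1Rhr. These 5 genes were chosen after their values were seen. Lepr, the leptin receptor that marks much of the adult marrow stroma, did not exceed 0.2 raw FPKM in any library. The osteoblast genes Bglap and Bglap2 were listed at 0 throughout, and Ibsp was listed at 0 in all 6 mutant libraries, with 0.0432, 1.50 and 0.487 raw FPKM in wild type. Of the 3 tested osteoblast and cartilage markers none was called on either table, and Alpl, an alkaline phosphatase that other marrow cells also make, was highest at 13.2 ± 4.90 in wild type.

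Lists of other cell types held both markers at 0 and abundant genes. Among endothelial markers Robo4 was at 0 throughout, Tek did not exceed 0.0337 raw FPKM, and 0 of 5 tested were called on normalised FPKM and 1, Vwf, lower in Ts1Rhr on raw FPKM, with Eng (20.4 ± 1.60 raw FPKM in wild type, SD, n = 3) and Pecam1 (14.4 ± 1.10) highest. Among pericyte and smooth muscle markers Rgs5 and Des were at 0 throughout, and the 1 tested, Tpm1 (23.6 ± 4.61), was not called on either table. Among adipocyte markers Lep and Retn were at 0, and 0 of 4 tested were called on normalised FPKM and 1, Fabp4, lower in Ts1Rhr on raw FPKM, with Lpl (1032 ± 233) and Fabp4 (238 ± 84.4) highest. Dendritic cell (6 tested), mast cell (1 tested) and T and NK cell markers (1 tested) gave 0 calls on normalised FPKM, although 6 of the 10 dendritic cell markers were detected in wild type. On raw FPKM 1 dendritic cell marker was called lower in Ts1Rhr. Car2, listed with the megakaryocyte and erythroid markers, rose in Ts1Rhr (log2 fold change 1.21 ± 0.25 SE, limma adjusted p = 0.041), the 1 call of 3 tested on normalised FPKM, while on raw FPKM 2 were called lower and 1 higher. Igj, the joining chain of antibodies, fell in both groups among 6 tested plasma cell markers, by 2.29 ± 0.45 in Ts1Rhr (limma adjusted p = 0.033) and by 3.43 ± 0.45 in HMGN1_OE (limma adjusted p = 0.00646). The part of myeloid cells and of stromal cell number in the decreases of the 40 genes was not tested beyond the values above.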

How the data were processed

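RNA sequencing of 9 pro-B cultures was read from the 2 deposited tables of FPKM, raw and normalised. Per the submitters' processing notes, reads were aligned with HISAT and quantified with Cufflinks 2.0.0 on mm9; how the authors normalised is not stated, and depth is unknown. Of 23398 rows, 92 spike-ins and 27 rows with dates for symbols were left out. Tests used limma 3.58.1 (R 4.3.3, intensity trend, 1 mean per group, all 9 libraries) on log2 of the deposited normalised FPKM, which already hold about 0.1, and on log2(raw FPKM + 0.1), so folds of low genes are understated. The script was tested on simulated data. Separate animals are not named for the replicates, so the p-values cover sample spread, which may be technical. Members and 19 other lists were chosen with earlier results of these data known. All 40 members were named, with values per library for detected members that passed; from other lists, genes that passed (at most 4), otherwise the 2 highest. Alternatives were other tables, scalings, pseudocounts, filters, variance models, samples, a replicate block and a myeloid covariate.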

Additional observations from a re-analysis of the deposited data

How the results depend on the processing

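The count of genes called in Ts1Rhr, 8 on normalised FPKM, was 16 on raw FPKM, 14 with every library at the same median, 5 with a mean of at least 5 raw FPKM, 1 with no filter, 0 with the myeloid score as covariate, and 5 without both wild-type replicate 1 and Ts1Rhr replicate 3, a choice made after seeing the data. Leaving out each library gave 1 to 11, with 1 without wild-type replicate 3, 2 without Ts1Rhr replicate 2, 4 without Ts1Rhr replicate 3 and 5 without wild-type replicate 2. In HMGN1_OE, 6 became 2 on raw FPKM, 0 with no filter, 2 with the myeloid covariate, and 0 to 8 without single libraries (0 without wild-type replicate 2 or 3, 2 without HMGN1_OE replicate 1). On raw FPKM the 16 of Ts1Rhr became 9 with the mean of at least 5, 0 without both libraries, 0 with the myeloid covariate (both chosen after seeing the data), and 0 to 17 without single libraries. It was 0 without wild-type replicate 1 or 3 or Ts1Rhr replicate 3, 1 without Ts1Rhr replicate 2 and 9 without wild-type replicate 2. The 2 of HMGN1_OE became 9 with a pseudocount of 1, 5 with no filter, 0 without both libraries, 5 with the myeloid covariate, and 0 to 4 without single libraries, with 0 without any one wild-type library and 1 without HMGN1_OE replicate 1. Ts1Rhr against HMGN1_OE gave 0 throughout, except 1 on raw FPKM without HMGN1_OE replicate 1. Fewer samples or more genes tested enter several of these settings, and other causes were not tested. Over all tested genes, 62 were called in Ts1Rhr on normalised FPKM, 963 on raw FPKM and 8 on normalised FPKM with no filter. In HMGN1_OE these counts were 10, 4 and 4, with 27 on raw FPKM with no filter. For the other settings against wild type, calls over all genes are not given here. Their counts therefore do not tell whether the listed genes or all genes gained or lost calls.

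Same-numbered libraries did not deviate together (correlations from -0.132 to 0.156), so the numbers were not taken as pairs. With the replicate number as a block the counts were 9 in Ts1Rhr, 7 in HMGN1_OE and 0 between them on normalised FPKM, and 12, 1 and 0 on raw FPKM. Calls over all genes with this block are not given here.

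Of 936 recomputed fold changes of single genes, 807 kept side and direction, 74 lost the call, 46 gained one and 9 reversed, none of them a called gene. The ranges without single libraries were -2.33 to 0.0579 for Dcn in Ts1Rhr, and -0.59 to 0.0705 for Vim and -0.0268 to 0.96 for Tagln in HMGN1_OE. Reversed were Dcn in Ts1Rhr without Ts1Rhr replicate 2 (0.058), Adamts1 (0.16) and Thy1 (0.51) in Ts1Rhr and Timp2 in HMGN1_OE (0.035) with the myeloid covariate, Thy1 in Ts1Rhr without both libraries (0.087), Vim in HMGN1_OE without wild-type replicate 1 (0.057), HMGN1_OE replicate 3 (0.0705) or both libraries (0.057), and Tagln in HMGN1_OE without HMGN1_OE replicate 2 (-0.027). In each mutant group 18 of the 24 genes were lower under every setting recomputed for single genes. Those settings included the main raw FPKM fit, and the further settings on raw FPKM were not checked gene by gene. Of the 40 genes 16 had a mean under 1 raw FPKM and were not tested, and the depth behind such low values is unknown.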

Other observations

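Rare markers of other cell types varied between the wild-type libraries. In wild-type replicate 2 the fat-cell hormone gene Adipoq (1.40 raw FPKM) and the bone matrix gene Ibsp (1.50) were both at their highest, with 0.0737 and 0.0432 in replicate 1 and 0.388 and 0.487 in replicate 3. Replicate 2 was also the library with the highest collagen sum. In the mutant libraries Ibsp was listed at 0 in all 6, and Adipoq in all but Ts1Rhr replicate 2 (0.0488). These genes were singled out after their values were seen, and depth is unknown.

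The balance of the type VI collagen chains spread widely in Ts1Rhr. The raw FPKM ratio of Col6a1 to Col6a3 was 2.20, 1.44 and 2.44 in wild type, 0.803, 1.28 and 1.51 in HMGN1_OE, and 0.528, 0.145 and 2.63 in Ts1Rhr. Differences between groups were not tested, and the mutant values rest on levels near or below 1 FPKM.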
